A study of Mus musculus with 8 samples.

Results

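The genes described here handle iron, heme and iron-sulfur clusters in the mouse heart, and 9 of them were chosen by name for their roles, with earlier results of these data known. They are Tfrc, Fth1, Ftl1, Slc40a1, Hamp, Alas1, Fech, Iscu and Nfs1, which make up 9 of the 50599 gene records in each library. Their mRNA was measured by RNA sequencing of total heart RNA, depleted of cytoplasmic rRNA, in 8 libraries, each from 1 animal. As the study describes its lines, all animals were male C57BL/6N mice that carried loxP sites in both copies of Lrpprc, a gene for an RNA-binding protein of mitochondria. The 4 animals labelled wildtype carried no Cre recombinase, and the 4 labelled Lrpprc knockout carried a Cre that removes the gene in heart and skeletal muscle. The promoter of that Cre was not given in the sources used here, and a group with Cre but intact Lrpprc was not analysed here. The question was whether these genes differed between the hearts with and without Lrpprc.

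Iron enters cells bound to transferrin through the receptor encoded by Tfrc, is stored in ferritin built from Fth1 and Ftl1 chains, and leaves through ferroportin, encoded by Slc40a1, which the hormone hepcidin from Hamp removes from the membrane. In mitochondria iron is put into heme, by a pathway that Alas1 opens and Fech closes, and into iron-sulfur clusters, which are built on the scaffold Iscu with sulfur released by Nfs1. When cells lack iron, iron regulatory proteins bind a hairpin called the iron-responsive element. Bound in a 5′ UTR the proteins block translation, and bound in the 3′ UTR of Tfrc they protect the mRNA from decay. Such control of translation leaves the mRNA level as it was and is not seen in the measurements below.

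The elements are shown because they are the feature that ties the uptake, storage and export genes to the iron level of a cell. The UTRs of GENCODE M21 (GRCm38) were searched on the sense strand for a C, 5 bases, CAGTG, 1 further base and 5 bases that pair with the first 5, with at most 1 mismatch. Of the 9 genes 4 held the pattern, with no mismatch in any of these elements, against 1.0% of 20582 genes with an annotated 5′ UTR and 4.16% of 20978 genes with a 3′ UTR. Capitals mark the bulged C and the loop, read 5′ to 3′ on the strand of the gene. The elements of Fth1 (chr19:9982732-9982761, plus strand), Ftl1 (chr7:45459778-45459807, minus strand) and Slc40a1 (chr1:45925464-45925493, minus strand) stood in the 5′ UTR.
Fth1: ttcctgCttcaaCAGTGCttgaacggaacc
Ftl1: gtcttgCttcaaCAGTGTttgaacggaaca
Slc40a1: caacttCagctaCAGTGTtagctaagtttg
Counted from 1 at the 5′ end of these 30 bases, the Fth1 element differed from that of Ftl1 by T1G, C4T, C18T and C30A, and the paired arms were the same in both. Tfrc held 4 elements in its 3′ UTR on the plus strand, at chr16:32631219-32631248, chr16:32631598-32631627, chr16:32631663-32631692 and chr16:32631710-32631739, given here in that order.
Tfrc element 1: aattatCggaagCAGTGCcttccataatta
Tfrc element 2: cattatCgggagCAGTGTcttccataatgc
Tfrc element 3: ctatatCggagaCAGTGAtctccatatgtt
Tfrc element 4: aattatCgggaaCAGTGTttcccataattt
Among the other genes of these pathways 9 held the pattern. They were Alas2 and Tmem14c in the 5′ UTR and Slc11a2, Bach1, Bola3, Cisd2, Glrx3, Iba57 and Lias in the 3′ UTR, and all but Alas2 and Bola3 had 1 mismatch. Alas2, the erythroid enzyme that opens heme synthesis, held its element in the 5′ UTR, split by an intron between chrX:150547458 and 150552150 on the plus strand.
Alas2: ttggttCgtcctCAGTGCagggcaacagga
A match describes these letters only, and binding was not measured.

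The libraries held 35218541 to 47743376 counts each. Lrpprc itself was lower in the knockout, where its log2 fold change was -2.67, and the groups did not overlap. Mitochondrial rRNA took 44.0% to 46.9% of the counts in wildtype and 65.6% to 67.8% in knockout libraries, so the scaling of the libraries bears on every small difference below. Of 10 cardiomyocyte markers 8 were called lower in the knockout and 0 higher, and of 10 macrophage markers 8 were called higher and 0 lower. By the same test, described below, 18.2% of all records were higher and 15.5% lower. The groups did not overlap for 8 of the cardiomyocyte and 2 of the macrophage markers, against 33.0% of all records. Of 7 endothelial markers 0 were called. The summed normalised count of 4 atrial markers was 9980 to 12040 in wildtype libraries and 4754, 6012, 1268 and 3233 in knockout replicates 1 to 4, so replicate 3 had the lowest sum. Of these 4 markers 2 were called lower and 2 were not called. In RNA of heart tissue, fewer cells of a type and less RNA per cell cannot be told apart.

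Counts were compared with DESeq2, after division by size factors and correction for transcript length, and a gene was called changed at an adjusted p under 0.05 over all records tested. Across the 19959 records tested, 33.7% were called, 18.2% higher and 15.5% lower in the knockout. Of the 9 genes, 3 were called, which is 33.3% and close to that background. Ftl1 rose, Slc40a1 and Nfs1 fell, and Tfrc, Fth1, Hamp, Alas1, Fech and Iscu did not pass the threshold. The groups did not overlap for the same 3 genes, against 33.0% of all records. The median log2 fold change of the 9 genes was -0.24, against 0.005 over all records tested.

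**Figure D1:**
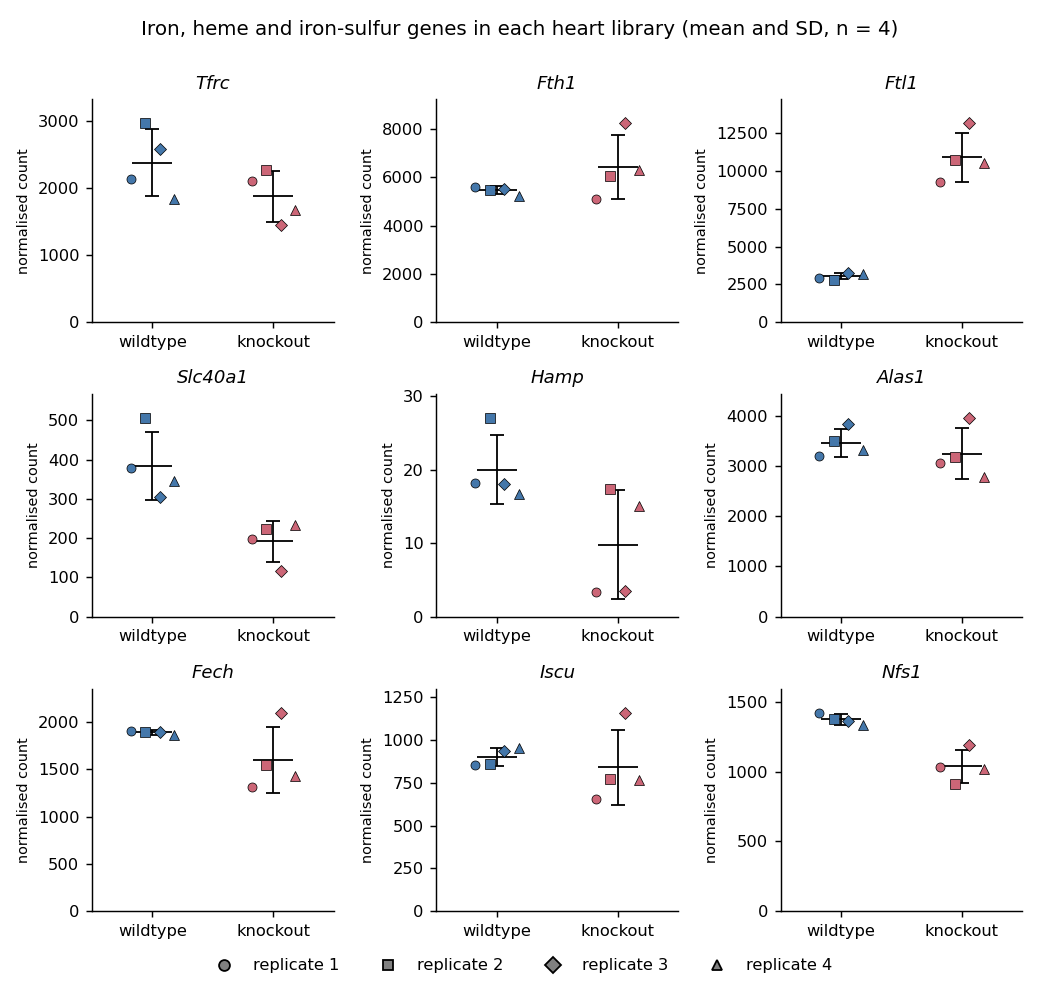
Normalised counts (vertical axis, starting at 0 and scaled separately in each panel) of the 9 genes in wildtype and knockout hearts, with a symbol for each replicate and lines for the mean and SD of 4 libraries. The 4 knockout libraries of Ftl1 lie between 9273 and 13170, above all wildtype libraries, while those of Slc40a1 and Nfs1 lie below, and the groups overlap in the other panels.

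The storage genes differed from each other. Ftl1 (chromosome 7, 45457944 to 45459884, minus strand) encodes the light chain of ferritin, the part of the shell where the iron core forms. Wildtype replicates 1 to 4 had normalised counts of 2885, 2814, 3266 and 3167, and knockout replicates 1 to 4 had 9273, 10730, 13170 and 10520. The lowest knockout library stood well above the highest wildtype library, and the spread within the knockout was wider than within the wildtype. The mean rose 3.60-fold, from 3033 ± 218 to 10920 ± 1630 (SD, n = 4), with a log2 fold change of 1.85 ± 0.125 (SE, adjusted p = 9.28e-47 by DESeq2). Ftl1 has 5 near-identical copies in the genome, but they held at most 0.121% of the counts in any library, and the log2 fold change with the copies added was 1.85. The macrophage markers were higher as well, with a median log2 fold change of 0.78. Their summed normalised counts were 4478 to 6097 in wildtype libraries and 6478, 11850, 4903 and 10120 in knockout replicates 1 to 4, and the part of macrophages in the difference was not tested.

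Fth1 (chromosome 19, 9980598 to 9985098, plus strand) encodes the heavy chain, which oxidises iron so that it can be stored. Its normalised counts were 5609, 5483, 5529 and 5242 in the wildtype and 5082, 6046, 8241 and 6289 in the knockout. Knockout replicate 1 was the lowest and knockout replicate 3 the highest of all 8 libraries, so the groups overlapped. The log2 fold change was 0.23 with a 95% interval from -0.05 to 0.52 (DESeq2, adjusted p = 0.225). Without knockout replicate 1 it was 0.33 and past the threshold (DESeq2, adjusted p = 0.0348), while leaving out knockout replicate 3 gave 0.09 (adjusted p = 0.518 by DESeq2).

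The balance of the ferritin chains was compared as a ratio within each library, which does not depend on library scaling. On the scale of TPM, a share of all transcripts corrected for their length, the log2 ratio of Fth1 to Ftl1 was 1.15, 1.15, 0.95 and 0.91 in wildtype replicates 1 to 4. In knockout replicates 1 to 4 it was -0.68, -0.64, -0.49 and -0.55. All wildtype hearts thus held more Fth1 than Ftl1 mRNA, and all knockout hearts held less. The mean ratio went from 2.06 to 0.664, a 3.09-fold difference (exact permutation test over 70 assignments, two-sided p = 0.0286, the lowest they can give). Adjusted over the 5 ratios examined the value was 0.143 (exact permutation test), and leaving out any single library gave differences between -1.67 and -1.59.

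**Figure D2:**
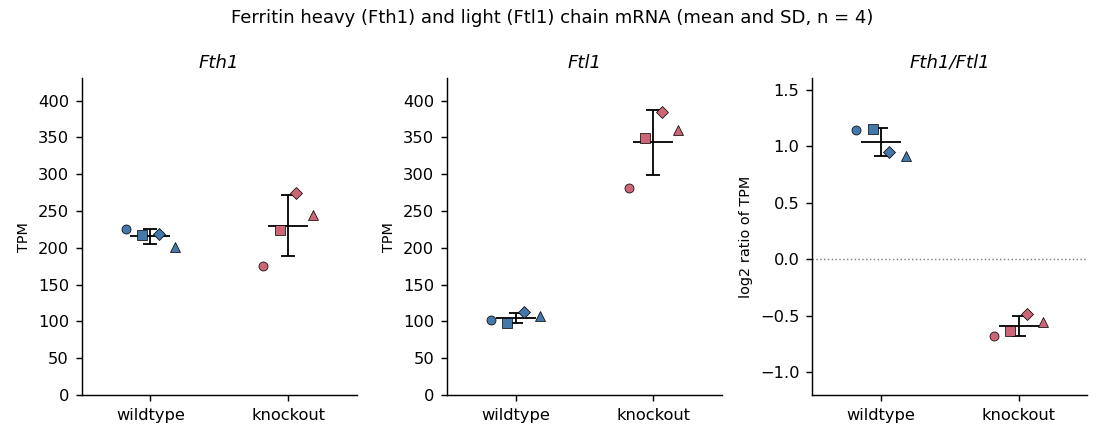
TPM of Fth1 and of Ftl1 (left and middle, axes starting at 0) and the log2 ratio of Fth1 to Ftl1 within each library (right, dotted line at equal levels), with a symbol for each replicate and lines for the mean and SD of 4 libraries. In the wildtype Fth1 lies at 201.0 to 224.8 TPM, above Ftl1 in each library, in the knockout it lies at 175.4 to 273.7 TPM, below Ftl1 in each library, and the ratio is above 0 in every wildtype and below 0 in every knockout library. TPM totals include mitochondrial rRNA, so the TPM panels show levels within a library and only the ratio is compared between the groups.

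Of the uptake and export genes, the export gene fell and the uptake gene did not pass the threshold. Tfrc (chromosome 16, 32608920 to 32632794, plus strand), the transferrin receptor, had normalised counts of 2137, 2963, 2574 and 1837 in the wildtype and 2101, 2271, 1448 and 1669 in the knockout. The groups overlapped, and the lowest library was a knockout and the highest a wildtype library. Its log2 fold change was -0.35 ± 0.189 (SE, adjusted p = 0.152 by DESeq2). Without the length correction it was -0.46 and past the threshold (DESeq2, adjusted p = 0.0357).

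Slc40a1 (chromosome 1, 45908068 to 45926523, minus strand) encodes ferroportin, the exporter through which iron leaves cells. Its normalised counts were 378.6, 505.8, 304.1 and 344.7 in the wildtype and 197.7, 222.0, 116.1 and 232.1 in the knockout. The groups did not overlap, and knockout replicate 3 was the lowest. The mean fell from 383.3 ± 87.2 to 192.0 ± 52.6 (SD, n = 4), a log2 fold change of -0.99 ± 0.237 (SE, adjusted p = 0.00019 by DESeq2). With libraries scaled to their total counts without mitochondrial rRNA the call was lost (-0.55, DESeq2 adjusted p = 0.0698). Ferroportin is also made by macrophages, of whose 10 markers 8 were higher, against 18.2% of all records. The part of these cells in the value of Slc40a1 was not tested.

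Within a library, the log2 ratio of Tfrc to Slc40a1 averaged 2.14 in the wildtype and 2.76 in the knockout, with overlap (exact permutation test, p = 0.0571). That of Tfrc to Fth1 averaged -3.78 and -4.33, also with overlap (exact permutation test, p = 0.143). Adjusted over the 5 ratios, both values were 0.143 (exact permutation test).

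Hamp (chromosome 7, 30942368 to 30944032, minus strand), which encodes hepcidin and is made mostly by the liver, was near the limit of detection. The deposited counts were 17, 28, 21 and 21 in the wildtype and 3, 15, 3 and 16 in the knockout. Knockout replicates 1 and 3 were at 3 counts, and knockout replicate 2 stood above the lowest wildtype library once normalised (17.42 against 16.76). The log2 fold change was -1.02 with a 95% interval from -2.13 to 0.10 (DESeq2, adjusted p = 0.163). Markers of hepatocytes summed to 32.7 to 80.5 normalised counts in wildtype and 28.2 to 47.5 in knockout libraries, and Serpina1a was at 0 in all 8. Of the 3 hepatocyte markers tested 1 was higher, Ttr, at up to 13.9 normalised counts, and 0 were lower, against 18.2% and 15.5% of all records. The second hepcidin gene, Hamp2, had at most 3 counts in any library, so no fold is given.

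The other genes of uptake, transport and storage moved in both directions. Of 20 tested, 5 were higher, 3 lower and 12 did not pass the threshold, so 40.0% were called against 33.7% of all records, with a median log2 fold change of 0.12. Total-count scaling gave 3 higher and 5 lower, and total counts without mitochondrial rRNA gave 12 and 2. Over all records these scalings called 9.64% higher and 29.6% lower, and 37.8% higher and 5.26% lower, and the other lists below are to be read against the same shares. Lcn2, which encodes a siderophore-binding protein of innate immunity, had 26.6 to 54.9 normalised counts in wildtype libraries and 100.2, 342.3, 1245 and 501.6 in knockout replicates 1 to 4. It rose by a log2 fold change of 3.97 ± 0.725 (SE, adjusted p = 5.28e-07 by DESeq2), the widest error among the called genes named here. Leaving out the highest library, knockout replicate 3, gave 3.17 (DESeq2, adjusted p = 1.78e-06).

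The STEAP reductases convert iron to the form that transporters carry, and of the 3 in the list 1 was higher, 1 lower and 1, Steap4, did not pass the threshold, at 0.0075 (adjusted p = 0.977 by DESeq2). Steap2 rose from 26.0 to 52.7 normalised counts in wildtype to 182.6 to 306.0 in knockout libraries (log2 fold change 2.66, DESeq2 adjusted p = 1.78e-20). Steap3, the reductase of the transferrin cycle, fell from 341.6 to 452.3 in wildtype to 122.8 to 219.5 in knockout libraries (log2 fold change -1.10, DESeq2 adjusted p = 2.03e-07). Trf, which encodes transferrin, had 752.1, 486.4, 709.9 and 537.4 in the wildtype and 596.4, 1679, 810.1 and 1578 in the knockout. Its groups overlapped, and the higher mean rested on knockout replicates 2 and 4. The log2 fold change was 0.91 (DESeq2, adjusted p = 0.00996), and without replicate 2 or without replicate 4 it was 0.68 and 0.73 (DESeq2, adjusted p = 0.0708 and 0.0685).

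Of 13 genes of iron sensing and hepcidin control, 2 were higher, 2 lower and 9 did not pass the threshold, so 30.8% were called against 33.7% of all records. The numbers were 0 and 4 with total counts and 6 and 1 with total counts without mitochondrial rRNA. Without knockout replicate 2 or 4 or wildtype replicate 1, 2 or 3, only 1 was higher. Hjv, which encodes hemojuvelin, a co-receptor of bone morphogenetic proteins in muscle and liver, fell from 2187 to 2436 normalised counts in wildtype to 886.8 to 1066 in knockout libraries. Its log2 fold change was -1.25 ± 0.0946 (SE, adjusted p = 8.66e-38 by DESeq2). Neo1, encoding neogenin, a partner of hemojuvelin, fell at a log2 fold change of -0.60 (adjusted p = 1.54e-06 by DESeq2). Smad7, an inhibitor of the same signalling route, rose with 0.56 (DESeq2, adjusted p = 0.00689). The genes for the iron regulatory proteins, Aco1 and Ireb2, had log2 fold changes of 0.16 and -0.11 (DESeq2, adjusted p = 0.212 and 0.494), short of the threshold, and these 2 genes were picked after their values were seen.

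**Figure D3:**
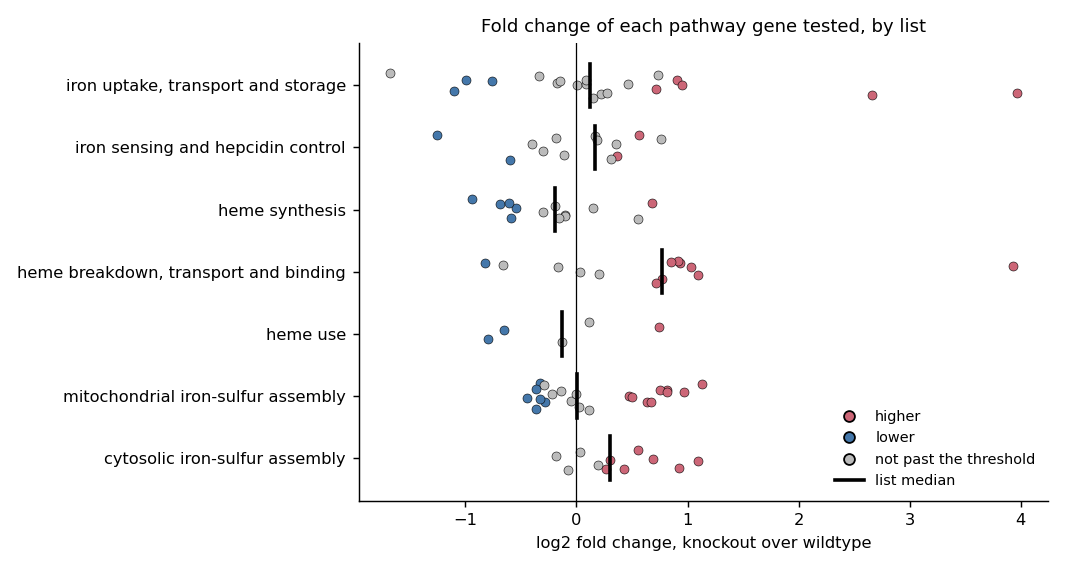
Log2 fold change, knockout over wildtype (horizontal axis), of each gene tested in the 7 lists of iron, heme and iron-sulfur genes, with points coloured by the DESeq2 call and a bar at each list's median. The medians lie between -0.19 for heme synthesis and 0.77 for heme breakdown, transport and binding, and Lcn2 and Hmox1 lie farthest to the right, near 3.97 and 3.93.

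The enzymes at the ends of heme synthesis did not pass the threshold, while several between them fell. Alas1 (chromosome 9, 106233455 to 106248654, minus strand), the rate-limiting enzyme outside the erythroid line, had normalised counts of 3187, 3490, 3825 and 3309 in the wildtype and 3060, 3178, 3951 and 2773 in the knockout. The groups overlapped, and the highest and the lowest library were both knockout. On the log2 scale the difference was -0.09, with a 95% interval from -0.35 to 0.16 (DESeq2, adjusted p = 0.637).

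Fech (chromosome 18), which inserts iron into protoporphyrin, had normalised counts of 1907, 1889, 1897 and 1856 in the wildtype and 1312, 1542, 2096 and 1429 in the knockout. Knockout replicates 1, 2 and 4 lay below all wildtype libraries and replicate 3 above them. The log2 fold change was -0.24 ± 0.149 (SE, adjusted p = 0.212 by DESeq2), and without replicate 3 it was -0.40 and past the threshold (DESeq2, adjusted p = 1.1e-05), while without replicate 1 it was -0.16. Replicate 3 was also the library with the lowest atrial marker sum, and the part of tissue composition in this value was not tested. Another 3 records matched Fech at 95.2% to 95.5% identity over only 330 to 433 bases, and of the joint counts 12.1% to 18.1% were assigned to them. The sum, which may include other transcripts, gave -0.28 (DESeq2, adjusted p = 0.103). The log2 ratio of Alas1 to Fech averaged 2.35 in the wildtype and 2.52 in the knockout (exact permutation test, p = 0.114, adjusted 0.143).

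Of 13 other genes of heme synthesis, 1 was higher, 5 were lower and 7 did not pass the threshold, against 18.2% of all records higher and 15.5% lower, with a median log2 fold change of -0.19. With total counts 0 were higher and 10 lower, with mitochondrial rRNA left out of the totals 3 were higher and 1 lower, and without knockout replicate 1 there were 2 higher. Uros, which closes the tetrapyrrole ring, fell from 293.6 to 352.1 normalised counts in wildtype to 162.1 to 184.7 in knockout libraries (log2 fold change -0.94, DESeq2 adjusted p = 1.66e-11). Alad, the enzyme after Alas1, fell from 456.3 to 502.8 to 246.2 to 352.8 (log2 fold change -0.68, DESeq2 adjusted p = 3.74e-05). Clpx, a subunit of a mitochondrial protease that also acts on the Alas enzymes, rose at a log2 fold change of 0.68 (adjusted p = 0.0026 by DESeq2), and leaving out knockout replicate 3 gave 0.43 (adjusted p = 3.22e-05).

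The erythroid gene Alas2 had normalised counts of 392.6, 363.7, 466.2 and 497.6 in the wildtype and 207.3, 789.3, 1125 and 405.0 in the knockout. The lowest and the highest libraries were both knockout, and its log2 fold change was 0.55 (DESeq2, adjusted p = 0.438). Without knockout replicate 1 it was 0.85 and past the threshold (DESeq2, adjusted p = 0.011), while leaving out knockout replicate 3 gave 0.12 (adjusted p = 0.886 by DESeq2). The hemoglobin gene Hba-a1, picked from the erythroid markers outside the naming rule below, had the same order in the knockout, with 3215, 9290, 10780 and 4293. Orders of the other erythroid markers are not given here. Of 8 erythroid markers tested, 1 was higher and 0 lower, against 18.2% and 15.5% of all records. Sums of the erythroid markers were 21300 to 27340 in wildtype and 16350 to 53550 in knockout libraries. The part of red blood cells in the hearts was not tested.

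**Figure D4:**
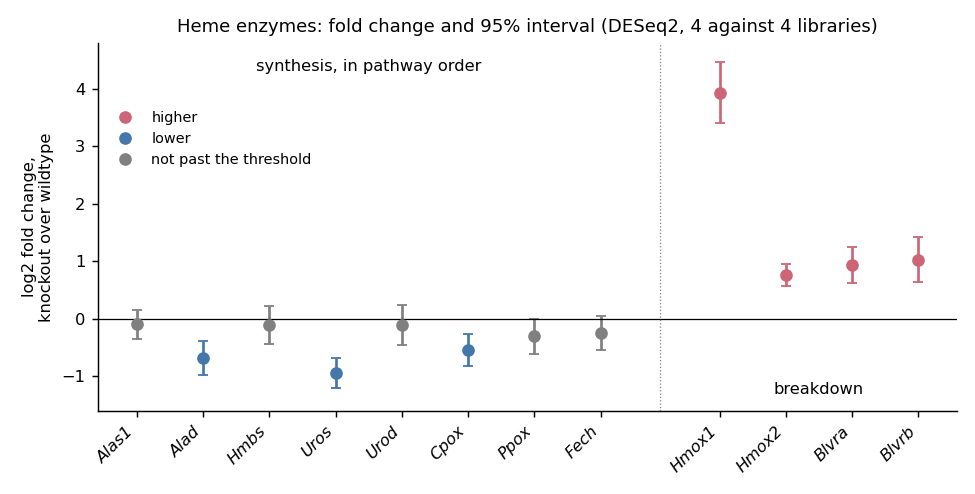
Log2 fold change, knockout over wildtype (vertical axis), of the 8 enzymes of heme synthesis in pathway order and of 4 enzymes of heme breakdown, with bars for the 95% interval and colours for the DESeq2 call. Alas1 and Fech, at the ends of synthesis, do not pass the threshold, while Alad, Uros and Cpox lie below 0, and all 4 breakdown enzymes lie above 0 with Hmox1 at 3.93.

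The genes of heme breakdown, transport and binding had the highest median of the 7 lists, 0.77. Of 13 genes of heme breakdown, transport and binding, 8 were higher, 1 was lower and 4 did not pass the threshold, against 18.2% of all records higher. The numbers higher and lower were 8 and 1 with total counts and 10 and 0 with mitochondrial rRNA left out of the totals. Hmox1, the stress-inducible heme oxygenase that releases iron from heme, had 50.6, 67.8, 86.3 and 59.1 normalised counts in the wildtype and 681.0, 1219, 715.2 and 1411 in the knockout. The lowest knockout library was far above the highest wildtype library, and replicates 2 and 4 were the highest, as they were for Trf. The mean rose 15.2-fold, with a log2 fold change of 3.93 ± 0.269 (SE, adjusted p = 4.12e-46 by DESeq2).

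Blvrb, which encodes a biliverdin reductase, rose at a log2 fold change of 1.03 (adjusted p = 2.14e-06 by DESeq2). Abcg2, an exporter that carries porphyrins among other substrates, rose with 1.09 (DESeq2, adjusted p = 9.99e-08). Hmox2, the constitutive heme oxygenase, and Blvra, the other biliverdin reductase, are named after their values were seen and had 0.77 and 0.94 (DESeq2, adjusted p = 1.05e-13 and 8.02e-08). Macrophages break down heme from red cells, and the summed marker counts of these cells are given with Ftl1 above. Their scavenger receptor Cd163, picked from the macrophage markers outside the naming rule below, had 260.2 to 308.5 normalised counts in wildtype libraries. In knockout replicates 1 to 4 it had 291.3, 864.4, 614.9 and 605.5. The part of macrophages in the higher Hmox1 was not tested.

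Among genes of heme use, 1 was higher, 2 lower and 2 did not pass the threshold, so 60.0% of only 5 genes were called against 33.7% of all records, and with mitochondrial rRNA left out of the totals 3 were higher and 1 lower. Mb, which encodes myoglobin, the oxygen-binding heme protein of muscle, fell from 115000 to 122100 normalised counts in wildtype to 61090 to 72190 in knockout libraries (log2 fold change -0.80, DESeq2 adjusted p = 9.98e-21). It moved with the cardiomyocyte markers, whose median log2 fold change was -0.82. Hccs, which attaches heme to cytochrome c, fell with -0.66 (DESeq2, adjusted p = 9.74e-06). Cygb, the globin of fibroblasts and other cells, rose with 0.74 (DESeq2, adjusted p = 1.92e-05). Of 7 fibroblast markers 3 were higher and 0 lower, against 18.2% and 15.5% of all records.

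For iron-sulfur clusters, the sulfur donor fell and the scaffold did not pass the threshold. Nfs1 (chromosome 2, 156123639 to 156144186, minus strand), the cysteine desulfurase, had normalised counts of 1423, 1378, 1366 and 1333 in the wildtype and 1035, 908.3, 1190 and 1019 in the knockout. The highest knockout library, replicate 3, was under the lowest wildtype library. The mean fell from 1375 ± 37.2 to 1038 ± 116 (SD, n = 4), a log2 fold change of -0.41 ± 0.105 (SE, adjusted p = 0.000635 by DESeq2). A protein-coding record that overlaps Nfs1, Gm28036, held 11.6% to 19.6% of their joint counts, and the sum gave -0.36 (DESeq2, adjusted p = 0.000859). With total counts without mitochondrial rRNA the difference of Nfs1 was lost (0.02, DESeq2 adjusted p = 0.911).

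Iscu (chromosome 5, 113772748 to 113778288, plus strand) had normalised counts of 851.0, 861.1, 935.7 and 950.1 in the wildtype and 657.8, 773.7, 1159 and 765.5 in the knockout. As for Fech, knockout replicates 1, 2 and 4 lay below all wildtype libraries and replicate 3 above them. The log2 fold change was -0.10 with a 95% interval from -0.44 to 0.24 (DESeq2, adjusted p = 0.709), and without replicate 3 it was -0.30 and past the threshold (DESeq2, adjusted p = 0.0146), while without replicate 1 it was 0.0012. The log2 ratio of Nfs1 to Iscu averaged -0.61 in the wildtype and -0.89 in the knockout, with overlap (exact permutation test, p = 0.114, adjusted 0.143).

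The other genes of mitochondrial cluster assembly were called in both directions. Of 22 tested, 9 were higher, 6 lower and 7 did not pass the threshold, so 68.2% were called against 33.7% of all records, and their median log2 fold change was 0.008. The split was 6 higher and 10 lower with total counts and 13 and 0 with total counts without mitochondrial rRNA. Leaving out knockout replicate 2 or 4 or wildtype replicate 2, 3 or 4 lowered the number lower to 2 or 3. Fdxr and Fdx2, the ferredoxin reductase and ferredoxin that supply electrons, rose with log2 fold changes of 1.13 and 0.81 (DESeq2, adjusted p = 8.82e-12 and 1.32e-06). Hspa9, a mitochondrial chaperone of cluster assembly, rose from 10440 to 11470 normalised counts in wildtype to 19610 to 24150 in knockout libraries (log2 fold change 0.97, DESeq2 adjusted p = 9.27e-23).

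Of 11 genes of cytosolic assembly, 7 were higher, 0 lower and 4 did not pass the threshold, against 18.2% of all records higher and 15.5% lower, with a median log2 fold change of 0.30. Total counts gave 3 higher and 2 lower, and leaving out mitochondrial rRNA gave 10 higher and 0 lower. Bola2 rose with 1.09 (DESeq2, adjusted p = 7.21e-11), and it helps to deliver clusters in the cytosol. Nubp2 and Nubp1, which form the scaffold of the cytosolic pathway, rose with 0.92 and 0.69 (DESeq2, adjusted p = 4.53e-08 and 3.63e-05). Leaving out any single library lowered the number higher to between 4 and 6, with 4 without wildtype replicate 1, wildtype replicate 4 or knockout replicate 3.

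Levels per transcript length ordered the genes in a similar way in both groups. In the wildtype the mean was 215.5 ± 10.2 TPM for Fth1, 104.9 ± 6.65 for Ftl1 and 97.9 ± 8.18 for Alas1 (SD, n = 4). Iscu, Nfs1, Fech and Tfrc followed at 31.2, 20.5, 19.1 and 15.9 TPM, and Slc40a1 and Hamp were lowest at 3.54 and 2.26 TPM. The ranges of Ftl1 and Alas1, Nfs1 and Fech, Fech and Tfrc, and Slc40a1 and Hamp overlapped between libraries. Within a library, Nfs1 was above Fech and Slc40a1 above Hamp in 4 of 4, while Ftl1 was above Alas1 and Fech above Tfrc in 3 of 4.

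In the knockout Ftl1 was the highest at 343.5 ± 44.1 TPM and Fth1 the second at 229.6 ± 41.4 (SD, n = 4), with no overlap. Alas1 and Iscu kept their places at 83.2 and 26.4 TPM. Fech, Nfs1 and Tfrc followed at 14.6, 14.0 and 11.4 TPM, and the ranges of Fech and Nfs1 and of Nfs1 and Tfrc overlapped. Slc40a1 and Hamp were again lowest, at 1.64 and 1.05 TPM, with Slc40a1 above Hamp in 4 of 4 libraries. TPM counts mitochondrial rRNA in its total, so a TPM level cannot be compared between the groups as the normalised counts are.

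For 8 of the 9 genes, the protein-coding gene with the most similar profile is given, over the 8 libraries among 9868 candidates, as the smallest root mean square difference in log2 normalised count relative to the wildtype mean. For Ftl1 it was Eef1a1, which encodes a translation elongation factor, at 0.0849. For Fth1 it was Mapre2 at 0.0585, for Slc40a1 Gas1 at 0.136, and for Tfrc Pex10 at 0.113. The values were 0.0548 for Alas1 with Wdtc1, 0.0658 for Iscu with Mgea5 and 0.0472 for Nfs1 with Pptc7. Hamp had no close match, since Armcx4, the nearest, differed by 0.4.

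The scaling of the libraries decided the sign of several small differences. Over records that averaged at least 10 normalised counts, the median log2 fold change was 0.02 with the size factors used here, -0.28 with total counts and 0.44 with total counts without mitochondrial rRNA. A change of scaling shifts all genes by nearly the same amount, and subtracting the median removes that shift. Near-equal relative values therefore follow from the method and do not test the calls. They were 1.83, 1.83 and 1.82 for Ftl1, -1.01 with the size factors used here for Slc40a1 and -0.42, -0.43 and -0.43 for Nfs1. Not relative to the median, total counts called 1 of the 9 genes higher and 6 lower (Tfrc, Slc40a1, Alas1, Fech, Iscu and Nfs1), against 9.64% and 29.6% of all records (39.3% called), and total counts without mitochondrial rRNA called 3 higher (Fth1, Ftl1 and Alas1) and 0 lower, against 37.8% and 5.26% (43.0% called). Among the other called genes chosen by the naming rule below, nearest profiles aside, Smad7, Clpx and Trf lost their call with total counts. Neo1, Alad and Hccs lost theirs with total counts without mitochondrial rRNA.

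**Figure D5:**
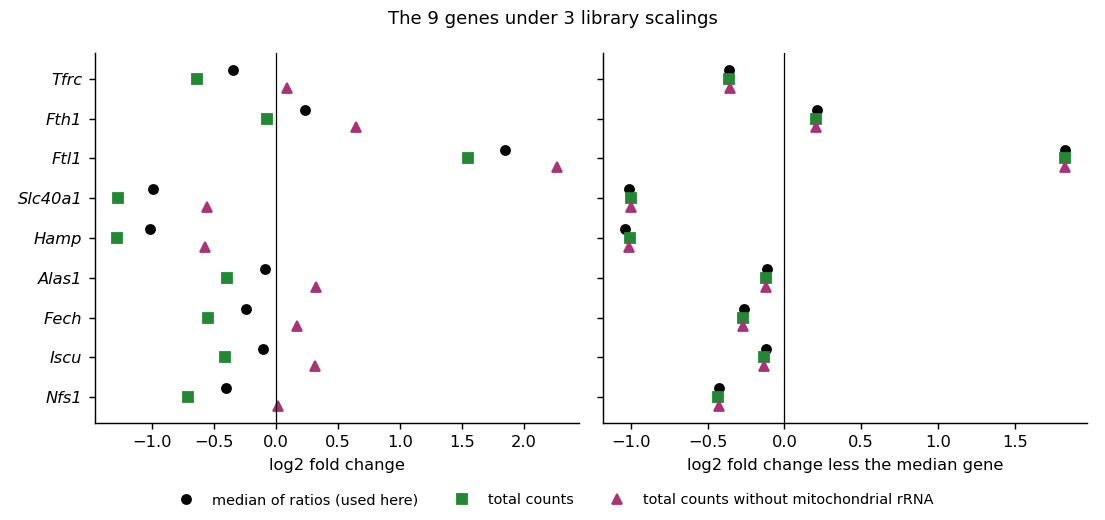
Log2 fold change, knockout over wildtype, of the 9 genes under 3 ways of scaling the libraries (left) and the same values less the median gene of each scaling (right), with a symbol for each scaling. On the left the symbols of Tfrc, Fth1, Alas1, Fech, Iscu and Nfs1 lie on both sides of 0, and on the right the 3 symbols of each gene nearly coincide. Subtracting the median removes the shift between scalings, so the near agreement on the right is built in.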

How the data were processed

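The authors aligned paired-end, reverse-stranded reads with RSEM 1.2.31 and Bowtie2 to GENCODE transcripts with added mitochondrial sequences. The deposited expected counts per gene record, which RSEM makes by dividing reads among matching genes, need not be whole. The deposited TPM values and the other deposited values used, gene length and effective length in bases, also came from RSEM. Tables of the authors' own comparison, with fold changes and p-values, and of normalised counts, whose 8 columns match no sample label, were not used. Each sample was grouped by its title.

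Expected counts were rounded and fitted with DESeq2 1.42.0 in R 4.3.3, comparing the genotypes with no other term, with size factors by the median of ratios and effective lengths as offsets. The authors used tximport and DESeq2, and their settings were not given in the sources used here. The Benjamini-Hochberg threshold was 0.05. Ratios used log2(TPM + 0.1). Symbols from GENCODE M21 matched 50339 of 50563 Ensembl records. Copies were records that matched with blastn 2.17.0 at 95% identity over 200 bases, which can be part of a transcript. Counts of at most 3 were treated as the floor, which covers counting error only. Depth was 35218541 to 47743376 counts per library. The fits were tested on simulated data. There the share of unchanged genes among the calls was above the nominal rate with edgeR, and further above it with DESeq2. Many small changes were missed with both.

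The genes and lists were chosen with earlier results of these data known. Named were the 9 genes, of each list the 3 largest called changes averaging at least 50 normalised counts, Alas2, Hamp2, Hmox1, Trf and Lrpprc, and the nearest profile of each of the 9 among genes with a mean of at least 100. Aco1, Ireb2, Hmox2, Blvra, Steap4 and cell type markers such as Hba-a1 and Cd163 were named outside this rule. The nearest profile of Fech is not reported here. Tried as alternatives were TMM with edgeR 4.0.16, counts without the length offset, a filter of 10 counts in 4 libraries, other scalings, a replicate block, summed copies and leaving out each library.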

Additional observations from a re-analysis of the deposited data

Results flagged for a closer look

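In 6 of 78 groups of 4 libraries examined, 1 library stood apart from the other 3 by Dixon's criterion, where chance alone gives about 3.9 such groups. Hamp was at 27.05 normalised counts in wildtype replicate 2 and at 16.76 to 18.17 in the other wildtype libraries. Lcn2 was at 54.9 in wildtype replicate 3 and at 26.59 to 29.39 in the others of that group. Blvrb was at 197.5 in knockout replicate 1 and at 303.1 to 324.8 in the other knockout libraries. Nubp2 was at 300.7 in knockout replicate 3, against 222.8 to 235.8. Hamp2 was at 1.14 in knockout replicate 1 and at 0 in the others, all at or under the floor of 3 counts. Lrpprc was at 504.3 in knockout replicate 2, against 597.4 to 605.4.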

How the results depend on the processing

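The calls of Ftl1, Slc40a1 and Nfs1 held with edgeR (adjusted p = 1.74e-06, 0.00596 and 0.0034), without the length offset, with the filter on low counts, with size factors from nuclear genes, with copies summed and without any single library. They also held with total counts, where 6 of the 9 genes were lower and Fth1 turned to -0.0724. Over the 97 pathway genes tested, 21 were then higher and 35 lower. By list the numbers higher and lower were 3 and 5 for uptake, 0 and 4 for sensing and 0 and 10 for heme synthesis. Of mitochondrial assembly 10 were lower, and of cytosolic assembly 3 were higher and 2 lower. With total counts without mitochondrial rRNA, 3 of the 9 genes were higher and 0 lower. Slc40a1 (-0.55) and Nfs1 lost their call, and Tfrc (0.0866), Alas1 (0.33, DESeq2 adjusted p = 0.0069), Fech (0.17), Iscu (0.31) and Nfs1 (0.0151) changed sign. Of the pathway genes 57 were then higher and 5 lower, 12 of uptake were higher, 6 of sensing were higher and 1 lower, and 3 of heme synthesis were higher and 1 lower. In heme breakdown 0 were lower, in heme use 3 were higher and 1 lower, and in mitochondrial assembly 0 were lower. Without the length offset 1 gene of sensing was higher.

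Leaving out each library in turn gave 1 to 2 of the 9 genes higher and 2 to 4 lower, and 28 to 35 pathway genes higher and 14 to 20 lower. The numbers higher were 4 to 7 for uptake, 1 to 3 for sensing, 1 to 2 for heme synthesis, 8 to 9 for mitochondrial and 4 to 6 for cytosolic assembly. The numbers lower were 2 to 3 for uptake, 5 to 6 for heme synthesis and 2 to 6 for mitochondrial assembly. Those of heme breakdown (8 higher, 1 lower) and heme use (1 and 2) were the same each time. Iscu changed sign without knockout replicate 1 (0.0012) and lay between that and -0.2983. The ratios kept their direction, in the ranges 0.53 to 0.77 for Tfrc to Slc40a1, -0.72 to -0.31 for Tfrc to Fth1, 0.10 to 0.21 for Alas1 to Fech and -0.38 to -0.18 for Nfs1 to Iscu, but an exact test could not go below 0.0571.

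Libraries of equal replicate number did not deviate together (correlations -0.074 to 0.072 over 15754 genes, and 1 of 4 matched its own number best), so the numbers do not pair the samples. With the replicate block 1 of the 9 genes was higher and 2 were lower, 1 gene of sensing was higher and 0 of heme breakdown were lower. Of the called genes chosen by the naming rule, nearest profiles aside, only Trf lost its call (0.80, DESeq2 adjusted p = 0.227). Over 4 pairs an exact test of a ratio cannot go below 0.125, the value for Fth1 to Ftl1. Hamp, at 3 to 28 counts, showed no detectable difference at this depth.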
